A study of Mus musculus with 12 samples.

Results

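The mitochondrial genome encodes 37 of the 55487 genes in a count table of whole mouse kidneys at postnatal day 15. All of them were taken, as the genes whose symbol begins with mt-, with 1 row for each gene identifier. They comprise 13 messenger RNAs, 2 ribosomal RNAs and 22 transfer RNAs, and 19 of them (all 13 mRNAs, both rRNAs and 4 tRNAs) had counts high enough to be tested. The 12 libraries form 4 groups of 3. The Cep120 KO group carries a Hoxb7-Cre deletion of Cep120, a centriole protein gene, and its control group is titled as heterozygous and labelled WT for genotype. The Pkd1 KO group carries a Hoxb7-Cre deletion of Pkd1, the gene of the polycystic kidney disease protein polycystin-1, and its control group is again titled as heterozygous and labelled WT. All 4 groups are titled with the Hoxb7 driver, and the labels do not say which alleles the heterozygous kidneys carry. The Hoxb7 driver is active in ureteric bud cells and in the collecting ducts they form, so a whole kidney also holds nephron, vessel and stromal cells in which the gene was not targeted. Nothing in the labels ties each library to its own animal, and p-values here reflect library-to-library spread that may be technical.

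Mitochondrial DNA is a small circle transcribed from both strands into long precursors, which are cut at the tRNAs between the genes to release the separate RNAs. Its mRNAs encode core subunits of complexes I, III and IV of the respiratory chain and of ATP synthase, while its rRNAs and tRNAs serve the ribosomes of the organelle itself. All other subunits, and the whole of complex II, are encoded in the nucleus. In the kidney, mitochondria are densest in the proximal tubule, the thick ascending limb and the distal convoluted tubule, whose solute transport consumes much ATP.

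The reads of several of these genes cannot be assigned without ambiguity, and the sequences that decide this are shown here, as given by the GENCODE M21 transcripts of the GRCm38 build. On the mitochondrial chromosome of that annotation, 12 mRNA genes, both rRNA genes and 14 tRNA genes lie on the plus strand, and mt-Nd6 and 8 tRNA genes lie on the minus strand. The sources do not state whether counting was done by strand. The sequence of mt-Atp8, which encodes a small ATP synthase subunit, ends inside mt-Atp6, which encodes the proton channel subunit. Capitals mark the 43 bases that both genes hold.
mt-Atp8: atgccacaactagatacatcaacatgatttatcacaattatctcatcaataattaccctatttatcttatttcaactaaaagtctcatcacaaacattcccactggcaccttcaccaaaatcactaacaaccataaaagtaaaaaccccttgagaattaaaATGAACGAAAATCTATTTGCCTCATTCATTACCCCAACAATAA
The end of mt-Nd4l and the start of mt-Nd4, both complex I genes, share the 7 bases in capitals.
mt-Nd4l: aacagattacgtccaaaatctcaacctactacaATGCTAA
mt-Nd4: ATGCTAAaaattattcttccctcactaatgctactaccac
The genes mt-Nd5 and mt-Nd6 overlap by 14 bases on opposite strands. Nuclear pseudogenes are a further source of ambiguity, since 7 of them on chromosome 1 match an mRNA at 99% identity or more. Of these, Gm29216 matched 483 bases of mt-Co1, the gene of the catalytic subunit of complex IV, with a single difference. The first 60 matched bases of each are printed with that base in capitals, A1066T counted from the first base of the mt-Co1 transcript, and the following 479 bases of the match were identical.
mt-Co1: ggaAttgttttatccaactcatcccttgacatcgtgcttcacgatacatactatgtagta
Gm29216: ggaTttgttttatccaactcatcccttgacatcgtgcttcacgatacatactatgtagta
The 4 tested tRNAs are printed because they are the tRNA genes with enough counts for a comparison, with the anticodon in capitals. The genes mt-Tl1 and mt-Ts1 carry leucine and serine, and mt-Tq and mt-Tp carry glutamine and proline.
mt-Tl1: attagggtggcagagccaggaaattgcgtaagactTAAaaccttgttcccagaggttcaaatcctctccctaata
mt-Tq: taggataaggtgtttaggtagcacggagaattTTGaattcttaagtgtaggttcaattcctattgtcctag
mt-Ts1: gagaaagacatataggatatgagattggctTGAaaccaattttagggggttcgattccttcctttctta
mt-Tp: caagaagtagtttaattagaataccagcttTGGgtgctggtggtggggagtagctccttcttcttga

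The libraries held 23070736 to 31837973 counts each. The RNA of the targeted genes was not lower in either knockout, so it did not check the labels. Cep120 averaged 17.9 ± 2.16 CPM (counts scaled to a common library size) in libraries carrying the Cep120 KO label and 16.2 ± 2.51 CPM in their controls (SD, n = 3 each). Pkd1 averaged 28.8 ± 6.69 CPM in libraries carrying the Pkd1 KO label and 17.2 ± 4.0 CPM in their controls (SD, n = 3 each). By edgeR, Pkd1 was called higher in these libraries, against the direction of the label (log2 fold change 0.74, adjusted p = 0.00952), and Cep120 was also called higher there (0.57, adjusted p = 0.0121). Pkd1 KO 1 had the highest Pkd1 level, at 36.4 CPM, and without it Pkd1 lost its call (0.53, edgeR adjusted p = 0.0553). With a model term for presence of Xist, an RNA described below, both genes lost their call. The edgeR adjusted p was then 0.378 for Pkd1 and 0.405 for Cep120. All directions below rest on the labels. Between 30321 and 32740 genes were detected in the 3 Cep120 KO libraries, Cep120 controls 1 and 2 and Pkd1 control 3, against 23544 to 25665 in the other 6. Xist, which coats the silenced X chromosome, was at 0 to 0.177 CPM (here per library total, without further scaling) in the Pkd1 KO libraries and at 53.6 to 127 CPM in their controls. It was at 0.274 and 0.356 CPM in Cep120 KO 1 and 2 and at 193 CPM in Cep120 KO 3.

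In Pkd1 KO kidneys, mitochondrial transcripts took up a smaller share of the library than in any other group. The 37 genes made up 3.47, 3.14 and 3.29% of the counts in Pkd1 KO libraries, against 7.21, 9.14 and 6.58% in Pkd1 controls. Every Pkd1 KO library lay below every control, and control 2 was the highest of all 12. The means were 3.30 ± 0.166% in Pkd1 KO libraries and 7.64 ± 1.33% in their controls (SD, n = 3 each), a difference of -4.34 percentage points and a ratio of 0.432. The 2-sided exact permutation test gave p = 0.1, the smallest that 3 libraries against 3 allow. In these bulk kidneys, fewer cells rich in mitochondria and less mitochondrial RNA per cell cannot be told apart. Xist was at 0 to 0.177 CPM in the Pkd1 KO libraries and at 53.6 to 127 CPM in their controls. Its presence, and with it sex, therefore cannot be told apart from genotype in this comparison.

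The fall was found in each class of transcript. The 13 mRNAs held 2.80 ± 0.0980% of the counts in Pkd1 KO libraries and 6.33 ± 1.1% in their controls (SD, n = 3 each, exact permutation p = 0.1). The 2 rRNAs held 0.493 ± 0.0775% in Pkd1 KO libraries and 1.31 ± 0.229% in their controls (SD, n = 3 each, exact permutation p = 0.1). The tRNAs contributed 3.24 ± 0.0619 CPM before scaling in Pkd1 KO libraries and 6.66 ± 2.68 in their controls (SD, n = 3 each, exact permutation p = 0.1), a level set by very few reads. Pkd1 control 1, at 3.71 CPM, came close to the Pkd1 KO range of 3.20 to 3.32 CPM. The balance between rRNA and mRNA moved little by comparison. The log2 ratio of rRNA to mRNA counts was -2.31, -2.62 and -2.63 in Pkd1 KO libraries, against -2.24, -2.27 and -2.28 in their controls. All 3 Pkd1 KO values were the lower, Pkd1 KO 1 only narrowly so, and the difference of means was -0.25 (exact permutation p = 0.1).

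In Cep120 KO kidneys the share spread widely. The 37 genes made up 4.78, 5.62 and 7.60% of the counts in Cep120 KO libraries, against 6.82, 6.68 and 6.74% in Cep120 controls. Cep120 KO 1 and 2 lay below the narrow range of the controls and Cep120 KO 3 lay above it. The means were 6.0 ± 1.45% in Cep120 KO libraries and 6.75 ± 0.0720% in their controls (SD, n = 3 each), a difference of -0.748 percentage points (exact permutation p = 0.4). That difference was -1.55 without Cep120 KO 3 and -0.139 without Cep120 KO 1. The mRNAs, at 5.11 ± 1.16% in Cep120 KO libraries and 5.70 ± 0.0579% in controls, gave the same p (SD, n = 3 each, exact permutation p = 0.4). The rRNAs, at 0.892 ± 0.286% in Cep120 KO libraries and 1.05 ± 0.0591% in controls, gave it too (SD, n = 3 each, exact permutation p = 0.4). Xist moved with this split, since the 2 low Cep120 KO libraries lacked it and the high one had it. Summed fat markers, from the cell type lists below, moved with it too. They stood at 212 and 150 CPM in Cep120 KO 1 and 2 and at 628 CPM in Cep120 KO 3, against 589 to 785 CPM in controls. Principal cell and macrophage sums went the other way, lowest in Cep120 KO 3. Sums of the tubule segments rich in mitochondria did not follow the split. In Cep120 KO 1, 2 and 3, proximal tubule sums were 7914, 6776 and 6917 CPM. Thick ascending limb sums were 3132, 2395 and 3113 CPM, and distal convoluted tubule sums were 826, 786 and 835 CPM, in the same order. With 3 libraries the parts of Xist and of fat and the spread between Cep120 KO libraries cannot be told apart.

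**Figure D1:**
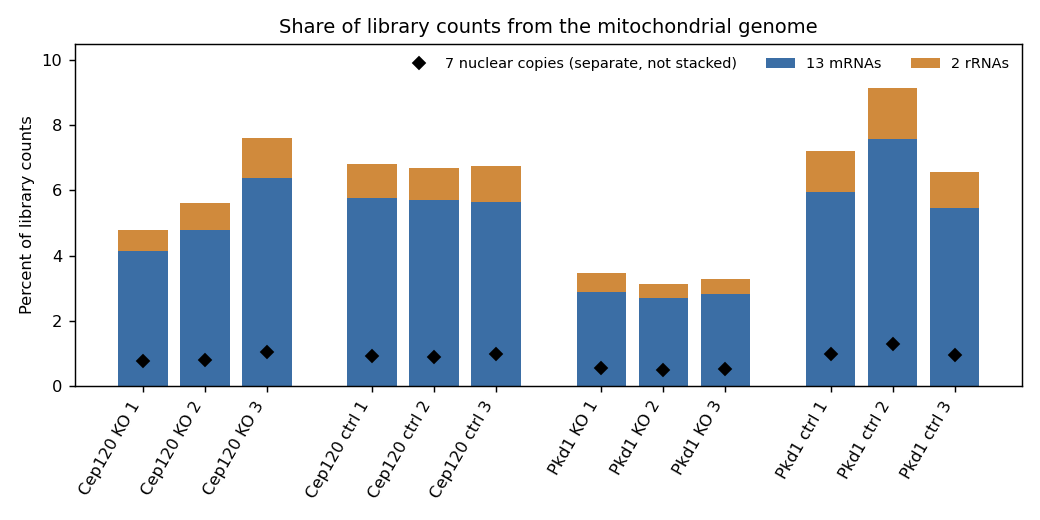
Percent of library counts (vertical axis) for each of the 12 libraries, as stacked bars of the 13 mRNAs and the 2 rRNAs, with black diamonds for the 7 nuclear copies, which are not part of the bars. The 3 Pkd1 KO bars end at 3.14 to 3.47%, below all others, and the Cep120 KO bars end on both sides of their controls.

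Gene by gene, 16 of the 19 tested mitochondrial transcripts fell in Pkd1 KO kidneys and none rose, by edgeR's quasi-likelihood test at an adjusted p of 0.05. Of all 19890 genes tested, 44.4% were called in either direction and 22.4% were called lower, so a call alone is common in this comparison. The calls covered all 13 mRNAs, both rRNAs and mt-Tq. The median log2 fold change of the mRNAs was -1.43, against -0.04 over all genes tested. Pkd1 KO and control libraries did not overlap for any of the 13 mRNAs, with Pkd1 KO the lower, and 25.5% of all genes tested were separated in that direction and 27.4% in the other. Presence of Xist coincides with genotype in these 6 libraries. With an Xist term in the model, which then rests on the Cep120 KO libraries alone, edgeR called 4 of the 19 lower (mt-Nd1, mt-Nd2, mt-Nd4 and mt-Nd6), the mRNA median was -0.84, and 2002 genes were called in the whole table.

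The 7 complex I mRNAs, which encode the membrane arm subunits of NADH dehydrogenase, spanned log2 fold changes of -2.25 to -1.25 with a median of -1.75. The gene mt-Nd2 stood at 389.7, 389 and 401 CPM in Pkd1 KO libraries, against 1819.7, 2481 and 1300.1 CPM in their controls. The Pkd1 KO libraries were nearly identical to each other, and the lowest control was still far above them. Its log2 fold change was -2.25 (SE 0.24, edgeR adjusted p = 1.23e-05). The gene mt-Nd3 stood at 127, 125 and 128 CPM in Pkd1 KO libraries, against 443, 789.9 and 380.3 CPM in their controls. Its groups did not overlap, and the log2 fold change was -2.09 (SE 0.27, edgeR adjusted p = 6.46e-05). The gene mt-Nd4 stood at 1021, 971 and 999 CPM in Pkd1 KO libraries, against 3585, 4825 and 2857 CPM in their controls. Again control 2 was the highest and control 3 the lowest of the controls, and the log2 fold change was -1.91 (SE 0.21, edgeR adjusted p = 1.87e-05). Its overlapping neighbour mt-Nd4l stood at 86.9, 77.2 and 86.4 CPM in Pkd1 KO libraries, against 288, 349 and 207 CPM in their controls. It followed the same order of control libraries, and its log2 fold change was -1.75 (edgeR adjusted p = 4.84e-05, SE 0.22). The remaining complex I genes lay closer to 0, with log2 fold changes of -1.43 for mt-Nd1, -1.44 for mt-Nd6 and -1.25 for mt-Nd5. The gene mt-Nd1 stood at 2071, 2189 and 2159 CPM in Pkd1 KO libraries, against 5566, 7279 and 4460.5 CPM in their controls (edgeR adjusted p = 4.25e-05). The gene mt-Nd5 stood at 978, 946 and 969 CPM in Pkd1 KO libraries, against 2512, 2533 and 1828 CPM in their controls (edgeR adjusted p = 0.000108). Neither gene's groups overlapped, and control 3 was the lowest control for both. Of these, mt-Nd6 is the only mRNA read from the minus strand. It stood at 217, 191 and 198 CPM in Pkd1 KO libraries, against 536, 648 and 461 CPM in their controls. The groups were clearly apart, and the edgeR adjusted p was 2.66e-05.

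Complex III takes a single mitochondrial mRNA, mt-Cytb, which encodes cytochrome b. It stood at 3711, 3637 and 3748 CPM in Pkd1 KO libraries, against 9649, 13569 and 7417 CPM in their controls. No Pkd1 KO library came near the lowest control, and the log2 fold change was -1.47 (SE 0.23, edgeR adjusted p = 0.000224).

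The 3 complex IV mRNAs, which encode the core subunits of cytochrome c oxidase, had log2 fold changes of -1.36 to -0.81. The mildest was mt-Co1, at 6549.7, 5827 and 6047 CPM in Pkd1 KO libraries, against 9519.8, 14241 and 8596 CPM in their controls. The groups did not overlap, and the gap to the lowest control was narrower than for mt-Nd2. Its log2 fold change was -0.81 (SE 0.22, edgeR adjusted p = 0.00944). The gene mt-Co3, with the most counts of the 13, stood at 7003, 7194 and 6969.9 CPM in Pkd1 KO libraries, against 16251, 24293 and 13813 CPM in their controls. Its Pkd1 KO libraries were all below the lowest control, and the log2 fold change was -1.36 (SE 0.22, edgeR adjusted p = 0.000277). The gene mt-Co2 stood at 2509, 2498 and 2483 CPM in Pkd1 KO libraries, against 5266, 7862 and 4611 CPM in their controls. Its Pkd1 KO libraries differed by little from each other, and the log2 fold change was -1.24 (SE 0.20, edgeR adjusted p = 0.00033).

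The ATP synthase pair lies on a shared transcript. The gene mt-Atp6 stood at 2567, 2642 and 2669 CPM in Pkd1 KO libraries, against 5457, 7647 and 4317 CPM in their controls. The gene mt-Atp8 stood at 412, 421 and 438 CPM in Pkd1 KO libraries, against 867, 1194 and 617 CPM in their controls. The libraries ranked alike for both genes in the controls, and the groups did not overlap for either. The log2 fold change was -1.14 for mt-Atp6 (SE 0.20, edgeR adjusted p = 0.000569). It was -1.08 for mt-Atp8 (SE 0.21, edgeR adjusted p = 0.0013).

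**Figure D2:**
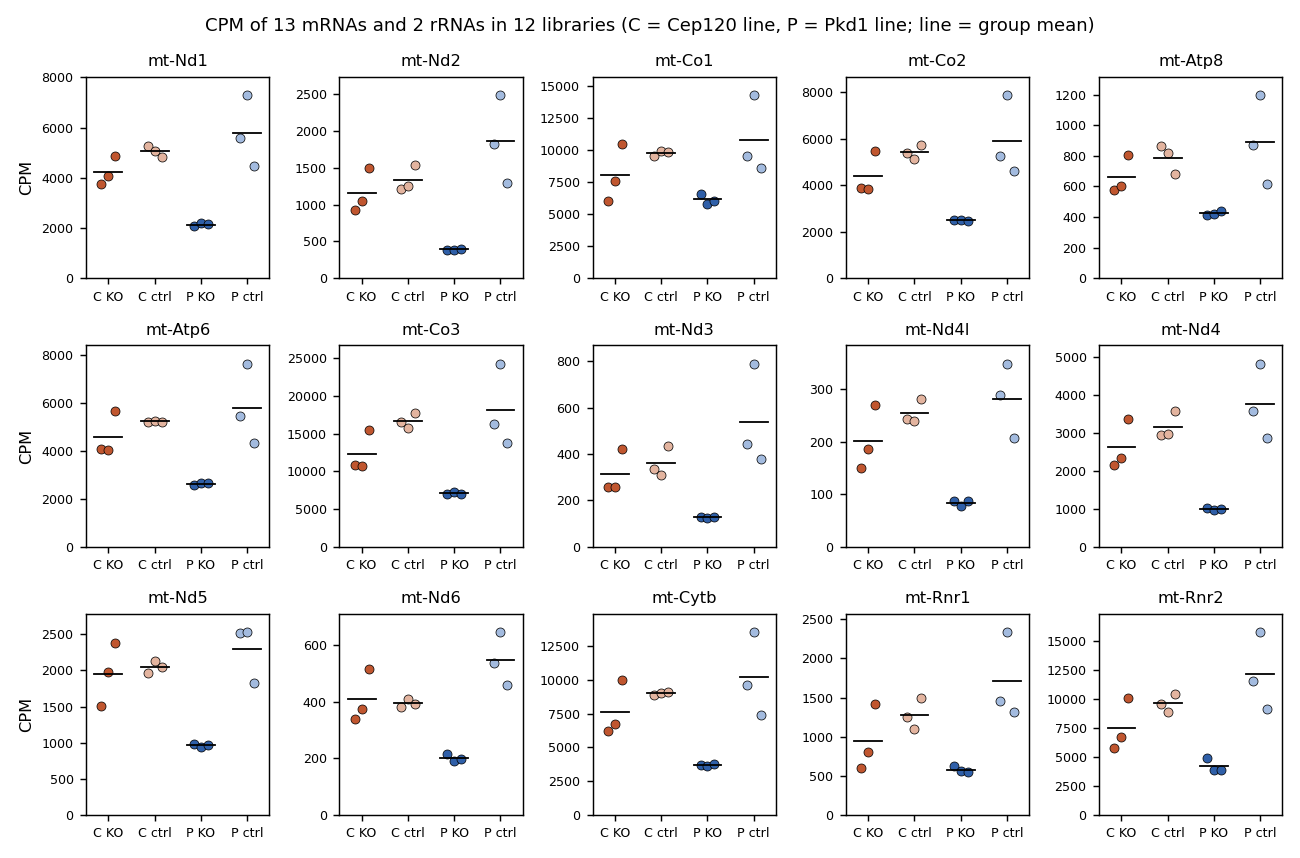
Normalised CPM (linear axes from 0) of the 13 mRNAs and 2 rRNAs, a panel per gene, with each point a library, each line a group mean, and C and P for the Cep120 and Pkd1 lines. For mt-Nd2 the 3 Pkd1 KO libraries lie between 389 and 401 CPM and their controls between 1300.1 and 2481 CPM.

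The rRNAs, which form the cores of the small and large mitochondrial ribosome subunits, fell alongside the mRNAs. The large-subunit RNA mt-Rnr2 stood at 4956, 3861 and 3865 CPM in Pkd1 KO libraries, against 11581, 15823 and 9125 CPM in their controls. The groups did not overlap, and Pkd1 KO 1 was the highest of its group. Its log2 fold change was -1.53 (SE 0.24, edgeR adjusted p = 0.000272). The small-subunit RNA mt-Rnr1 stood at 619.8, 559.6 and 543 CPM in Pkd1 KO libraries, against 1461, 2339 and 1316 CPM in their controls. These groups were also apart, and the log2 fold change was -1.57 (SE 0.29, edgeR adjusted p = 0.000827).

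The tRNAs were near the limit of detection. All 22 together had 1802 counts over the 12 libraries, of which mt-Tq alone gave 1110, and mt-Tw, mt-Tn, mt-Td and mt-Tr were at 0 in every library. The 8 minus-strand genes took 86.3% of the tRNA counts. These genes lie opposite the long plus-strand precursor, and reads of the 2 strands cannot be told apart unless the counting used strand. The gene mt-Tq stood at 1.52, 1.42 and 1.72 CPM in Pkd1 KO libraries, against 2.12, 4.77 and 4.99 CPM in their controls. Its groups did not overlap, though Pkd1 control 1 came close, and the log2 fold change was -1.34 (SE 0.34, edgeR adjusted p = 0.00678). The serine tRNA gene mt-Ts1 stood at 0.203, 0.387 and 0.179 CPM in Pkd1 KO libraries, against 0.391, 0.954 and 0.68 CPM in their controls. Pkd1 KO 2 and control 1 nearly coincided, the log2 fold change was -1.36 (SE 0.57) and the edgeR adjusted p was 0.0694, so it missed the threshold. For mt-Tl1 the log2 fold change was -0.47 (SE 0.61, edgeR adjusted p = 0.553). For mt-Tp it was -0.33 (SE 0.45, edgeR adjusted p = 0.576).

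No mitochondrial transcript was called in Cep120 KO kidneys by edgeR, and neither was any of the 19890 genes tested (0%). At an unadjusted p under 0.05, edgeR passed 1201 genes, of which mt-Tl1 was the only mitochondrial gene (log2 fold change -1.51, SE 0.63, edgeR adjusted p = 0.757). DESeq2 called 21 genes in the whole table and limma-voom called 0. The median log2 fold change of the 13 mRNAs was -0.25, and 12 of the 13 were below 0. They ranged from -0.44 for mt-Co3 to 0.06 for mt-Nd6.

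The individual Cep120 KO libraries did not move together. The gene mt-Co3 stood at 10832, 10708 and 15440.1 CPM in Cep120 KO libraries, against 16539.7, 15713 and 17802 CPM in their controls. All 3 were below the lowest control for this gene, with Cep120 KO 3 close to it, and 7.88% of all genes tested were separated in this direction and 8.64% in the other. The gene mt-Cytb stood at 6191, 6723 and 10011 CPM in Cep120 KO libraries, against 8878, 9039.9 and 9089.7 CPM in their controls. Here Cep120 KO 1 and 2 were below every control and Cep120 KO 3 was above every control. Over the 13 mRNAs, Cep120 KO 1 lay below the range of its controls in 13, Cep120 KO 2 in 12 and Cep120 KO 3 in 1. Cep120 KO 3 lay within that range in 7 and above it in 5.

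**Figure D3:**
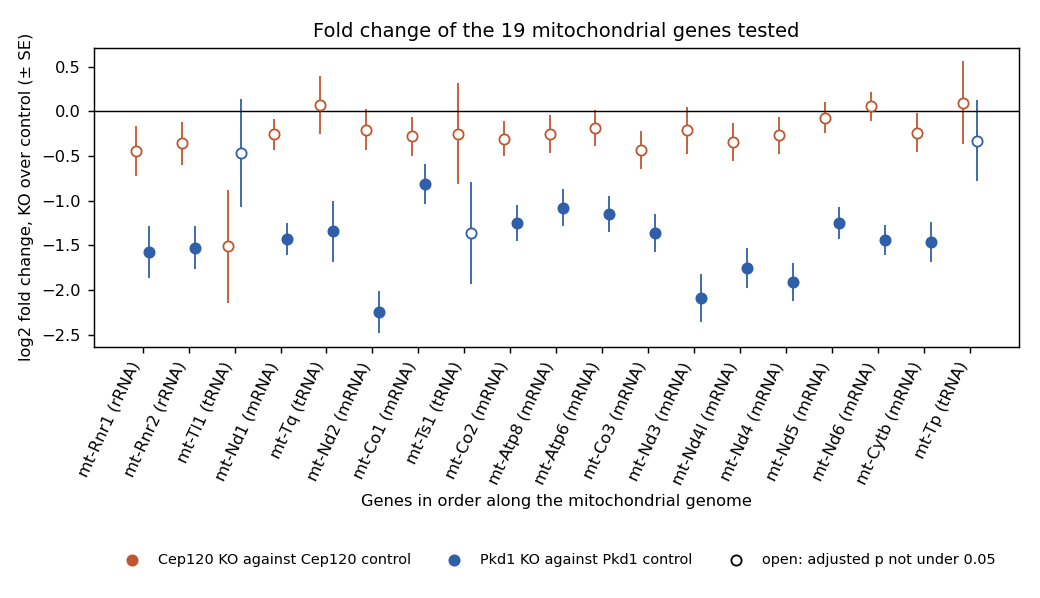
Log2 fold change (points) with its standard error (bars) for the 19 tested genes in order along the mitochondrial genome, Cep120 KO over control in orange and Pkd1 KO over control in blue; open points have an adjusted p that is not under 0.05. The Pkd1 values of the mRNAs run from -2.25 for mt-Nd2 to -0.81 for mt-Co1, and their Cep120 values lie between -0.44 and 0.06.

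The Pkd1 and Cep120 effects were set against each other by an interaction contrast. The Pkd1 effect was the lower for 13 of the 19 tested transcripts, including 11 of the 13 mRNAs. Over all genes the contrast called 28.1% in either direction and 14.2% in this one. The largest difference was -2.04 for mt-Nd2 (edgeR adjusted p = 0.000699). Next came -1.88 for mt-Nd3 (edgeR adjusted p = 0.00308) and -1.64 for mt-Nd4 (edgeR adjusted p = 0.00152). The mRNAs that missed the threshold were mt-Co1 at -0.53 (edgeR adjusted p = 0.209) and mt-Atp8 at -0.82 (edgeR adjusted p = 0.0551). With upper quartile scaling this contrast called 3427 genes lower and 2221 higher in the whole table, against 2834 and 2764 with the scaling used here. The count of 13 was 8 without Cep120 KO 3 and 8 without Cep120 control 2. The control groups themselves gave no call between the lines by edgeR, in the mitochondrial genes or in the table (0%). At an unadjusted p under 0.05, edgeR passed 834 of the 19890 genes and 3 of the 19 mitochondrial genes. These were mt-Nd2, mt-Nd3 and mt-Nd6, all higher in Pkd1 controls, at log2 fold changes of 0.49, 0.58 and 0.47. The interaction contrast includes these control levels. The median log2 fold change of the mRNAs, Pkd1 controls over Cep120 controls, was 0.18, and it was -0.04 without Pkd1 control 2.

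Scaled by transcript length, the mRNAs kept a steep order of abundance. In TPM, the length-scaled unit, mt-Co3 was the highest in all 4 groups. It stood at 15183 ± 296 TPM in Pkd1 KO libraries and 32081 ± 4581 TPM in their controls, and at 25707 ± 4203 TPM in Cep120 KO libraries and 31774 ± 454 TPM in their controls (SD, n = 3 each). Below it in Cep120 KO libraries and in both control groups came mt-Atp8, mt-Atp6, mt-Co2, mt-Cytb, mt-Co1, mt-Nd1, mt-Nd4, mt-Nd3, mt-Nd2, mt-Nd4l, mt-Nd6 and mt-Nd5. This order is that of the deposited values, in which reads given to nuclear copies are counted apart. Those copies, described below, held 41.3% of the counts of the pair with mt-Atp6 and 25.4% with mt-Co1. They held 15.9% with mt-Co2 and 9.94% with mt-Co3, so the places of these 4 genes depend on read assignment. The order with the copies added was not worked out. Neighbours in the deposited order were often closer than their spread. In Pkd1 controls, mt-Atp8 at 15067 ± 2622, mt-Atp6 at 13086 ± 1815 and mt-Co2 at 12717 ± 1656 TPM were not separated by their SDs. The order differed in Pkd1 KO libraries, where mt-Co1, at 5769 ± 452 TPM, stood above mt-Cytb, at 4928 ± 233 TPM (SD, n = 3 each). At the low end in Pkd1 KO libraries, mt-Nd3 stood at 898 TPM, mt-Nd6 at 882, mt-Nd5 at 806, mt-Nd4l at 770.4 and mt-Nd2 at 686, so mt-Nd2 was the lowest of the 13 there. Over the 13 mRNAs, the Pkd1 log2 fold change had a Spearman coefficient of 0.522 with the TPM level in Cep120 controls, 0.027 with transcript length and -0.269 with gene order. These are descriptions over 13 genes that share precursors and libraries.

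Within the mitochondrial mRNA pool the balance of complexes differed as well. Complex I genes supplied 17.9 ± 0.219% of the counts of the 13 mRNAs in Pkd1 KO libraries and 22.7 ± 1.17% in their controls (SD, n = 3 each). Complex IV genes supplied 57.4 ± 0.672% in Pkd1 KO libraries and 52.1 ± 1.59% in their controls (SD, n = 3 each). Within complex IV, mt-Co1 took 22.4 ± 1.13% of the pool in Pkd1 KO libraries and 16.2 ± 0.744% in their controls. The gene mt-Nd2 took 1.44 ± 0.0306% of it in Pkd1 KO libraries and 2.78 ± 0.20% in their controls. Cytochrome b supplied 13.5 ± 0.181% in Pkd1 KO libraries and 15.2 ± 0.562% in their controls, and ATP synthase genes 11.2 ± 0.330% in Pkd1 KO libraries and 10.01 ± 0.278% in their controls. In Cep120 KO libraries the pool leaned the other way, with complex IV at 51.0 ± 0.364% against 53.5 ± 0.765% in their controls. There mt-Co3 took 25.4 ± 1.09% of the pool in Cep120 KO libraries and 28.0 ± 1.0% in their controls, and mt-Nd6 took 0.846 ± 0.0133% in Cep120 KO libraries and 0.665 ± 0.0352% in their controls (SD, n = 3 each).

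**Figure D4:**
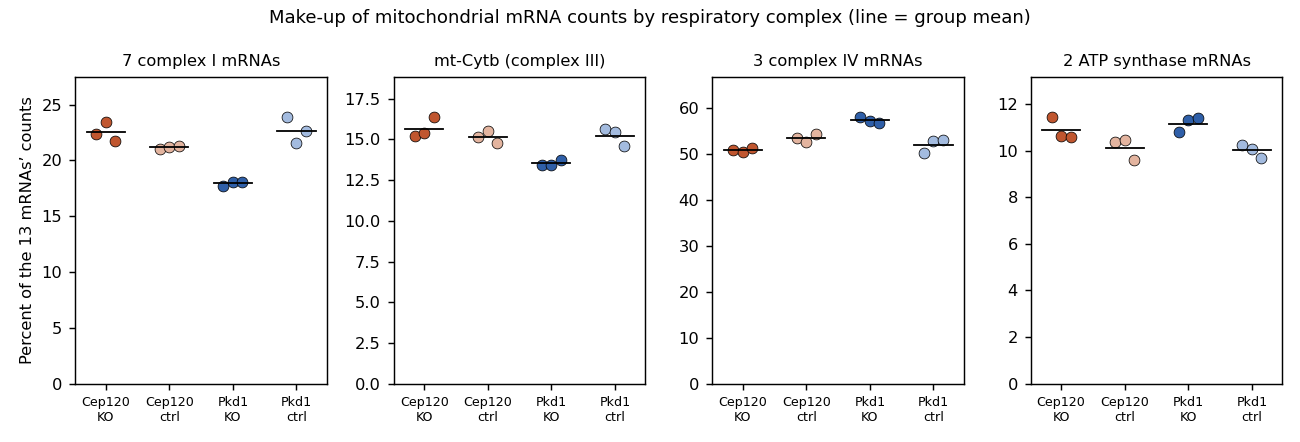
Percent of the counts of the 13 mitochondrial mRNAs supplied by complex I, complex III, complex IV and ATP synthase genes, a panel each, with each point a library and each line a group mean. Complex I averages 17.9% in Pkd1 KO libraries against 22.7% in their controls, and complex IV 57.4% in Pkd1 KO libraries against 52.1% in their controls.

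The nuclear copies took a sizeable part of the counts of some genes. Gm10925, identical to mt-Atp6 over 678 bases, held 41.3% of the counts of that pair. Gm29216 held 25.4% of its pair with mt-Co1, Gm28661 held 15.9% of its pair with mt-Co2 and Gm28437 held 9.94% of its pair with mt-Co3. For Gm10925 the part was even across libraries, at 39.8 to 42.5%. For Gm28661 it was 13.2 ± 0.271% in Pkd1 KO libraries and 16.4 ± 1.08% in their controls (SD, n = 3 each). Together the 7 copies took 0.497 to 0.545% of library counts in Pkd1 KO libraries and 0.952 to 1.27% in their controls. With each copy's counts added to its gene, a setting chosen after seeing the data, edgeR still called all 13 mRNAs lower in Pkd1 KO kidneys, with a median of -1.43 and a range of -2.25 to -0.80. The part of mt-Co2 in the pool changed side, at 9.13% in Pkd1 KO libraries against 8.85% in their controls as counted and 8.88% against 9.06% with the copies added.

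The nuclear genes that serve the mitochondrial genome were counted next, from lists chosen with results of these data known. Of 15 genes for transcription and replication of mitochondrial DNA, 5 fell and 1 rose in Pkd1 KO kidneys by edgeR, a total near the 44.4% called in either direction among all genes. By direction, 22.4% of all genes tested were called lower and 22.1% higher. Tfam packages the DNA and is a factor for starting its transcription. It stood at 35.4, 35.7 and 36.5 CPM in Pkd1 KO libraries, against 56.9, 59.6 and 45.3 CPM in their controls. The groups were apart, and the log2 fold change was -0.59 (edgeR adjusted p = 0.00327). Tefm, the elongation factor, was at -0.61, and Mgme1, a nuclease of DNA maintenance, was at -0.82. Polg2, the accessory subunit of the DNA polymerase, was higher, at 0.83. The other 9 missed the threshold. The median of this list was -0.12.

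Of 22 genes for processing and stability of mitochondrial RNA, 9 fell and 1 rose, with a median of -0.35. The total is close to the 44.4% called in either direction among all genes, but most of these calls were lower. Of all genes tested, 22.4% were called lower and 22.1% higher. The largest fall was in Lrpprc, whose product stabilises the mitochondrial mRNAs. It stood at 16.3, 15.9 and 16.8 CPM in Pkd1 KO libraries, against 51.1, 41.6 and 43.2 CPM in their controls. Every Pkd1 KO library was far below every control, and the log2 fold change was -1.47 (edgeR adjusted p = 1.05e-05). Grsf1, an RNA granule protein, was at -1.19, and the RNA-binding proteins Fastkd2 and Fastkd1 were at -1.02 and -0.69. Prorp, the catalytic subunit of the RNase P that cuts the precursor, was the gene that rose, at 0.57 (edgeR adjusted p = 0.0056), and is named after its value was seen.

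Of 9 regulators of mitochondrial biogenesis, 6 fell and 1 rose, with a median of -1.15. Among all genes tested, 22.4% were called lower and 22.1% higher. Ppargc1a, a coactivator of mitochondrial genes, stood at 45.0, 53.9 and 42.7 CPM in Pkd1 KO libraries, against 158, 135 and 112 CPM in their controls. The groups were well apart, and the log2 fold change was -1.51 (edgeR adjusted p = 3.42e-05). The orphan receptors Esrra and Esrrg, partners of that coactivator, were at -1.72 and -1.15. Nrf1, an activator of nuclear genes for mitochondria, was the gene that rose, at 0.51 (edgeR adjusted p = 0.0101), and is likewise named after its value was seen.

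The nuclear subunits of the respiratory complexes fell without exception among those listed, where 22.4% of all genes tested were called lower. All 10 of complex I fell, with a median of -1.02, and Ndufs1, its largest iron-sulphur subunit, was at -1.49. All 4 of complex II, which has no mitochondrial gene, fell with a median of -1.17, from Sdhb at -1.35 to Sdha at -1.06. All 9 of complex III fell with a median of -1.23, among them Cyc1, cytochrome c1, at -1.27. All 10 of complex IV and all 10 of ATP synthase fell, each list with a median of -1.20, with Cox5a at -1.35 and Atp5pb at -1.34. In all, 63 of the nuclear genes in the 8 lists fell, and with the Xist term 9 did. In the whole table of 19890 genes tested, 4451 were called lower, and with the Xist term 1011 were. In Cep120 KO kidneys edgeR called none of these genes, and the medians of the 8 lists lay between -0.36 and -0.03. By the interaction contrast, the Pkd1 effect was the lower for 5 of the 9 biogenesis regulators for 4 of the 22 RNA processing and stability genes and for 3 of 10 complex I, 4 of 4 complex II, 6 of 9 complex III, 5 of 10 complex IV and 7 of 10 ATP synthase genes. It was the lower for 0 of the 15 transcription and replication genes, and higher for 1 gene of the 8 lists, Prorp at 0.69 (edgeR adjusted p = 0.0228). The share of all genes called lower by this contrast was the 14.2% given above.

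**Figure D5:**
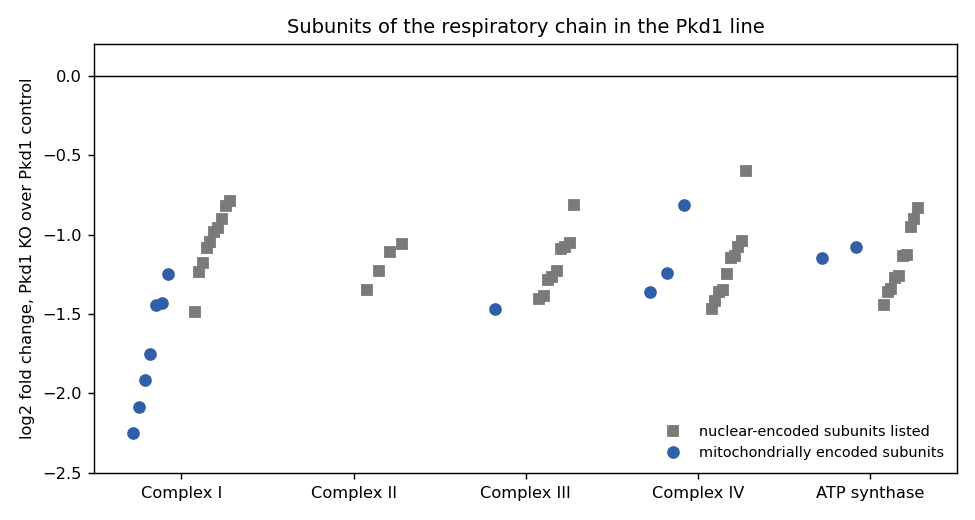
Log2 fold change, Pkd1 KO over Pkd1 control, of mitochondrially encoded subunits (blue circles) and listed nuclear-encoded subunits (grey squares) of each respiratory complex, each point a gene, sorted within its set. All lie below 0, with nuclear medians between -1.23 and -1.02 and mitochondrial medians between -1.75 and -1.11.

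Markers of kidney cell types moved with these results. For scale, edgeR called 22.1% of all genes tested higher and 22.4% lower in the Pkd1 comparison. In Pkd1 KO kidneys, all 10 proximal tubule markers fell by edgeR, and their summed level was 863 to 1291 CPM in Pkd1 KO libraries and 5419 to 8521 CPM in their controls. For the thick ascending limb 4 of 5 fell, with sums of 859 to 1379 CPM in Pkd1 KO libraries and 2498 to 3616 CPM in their controls. For the distal convoluted tubule 3 of 4 fell, with sums of 203 to 336 CPM in Pkd1 KO libraries and 779 to 929 CPM in their controls. All 7 markers of principal cells, a cell type of the collecting duct, rose, with sums of 2123 to 3716 CPM in Pkd1 KO libraries and 637 to 856 CPM in their controls. All 7 macrophage markers rose, at 1169 to 1722 CPM in Pkd1 KO libraries and 133 to 423 CPM in their controls, and all 6 myofibroblast markers rose, at 4977 to 7839 CPM in Pkd1 KO libraries and 1129 to 1993 CPM in their controls. All 5 red blood cell genes fell, at 490 to 1451 CPM in Pkd1 KO libraries and 5987 to 10465 CPM in their controls. Of 5 intercalated cell markers 1 rose and 3 fell, and of 6 fat markers 1 fell, with fat sums of 43.3 to 948 CPM in Pkd1 KO libraries and 301 to 1057 CPM in their controls. Of the muscle markers 1 of the 2 tested rose, at sums of 2.25 to 3.09 CPM in Pkd1 KO libraries and 0.907 to 1.61 CPM in their controls. All 3 tested adrenal markers rose. They summed to 902 CPM in Pkd1 KO 3 and to 3.71 to 4.20 CPM in Pkd1 KO 1 and 2, against 1.71 to 2.72 CPM in their controls. Pkd1 KO 3 did not stand apart in its mitochondrial share, and Cyp11b1, an enzyme of the adrenal cortex, was at 0 in every control library of both lines. The muscle genes Myh1 and Myh4 were at 0 in every Pkd1 library. In Cep120 KO kidneys no marker was called. The part of these cell types in the mitochondrial result was not tested.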

How the data were processed

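Whole-kidney RNA was made into cDNA with the SMARTer Ultra Low kit, per the labels' protocols. The submitters' processing notes name STAR 2.5.1a, featureCounts 1.4.6-p5, Salmon 0.8.2 and mm9, with no tool tied to a table. The authors deposited estimated counts per gene, some of them fractional, TPM values and moderated log2 CPM values. Estimated counts were rounded, and of 55774 lines 287 repeats of a gene identifier were dropped. The main test was edgeR 4.0.16 quasi-likelihood (filterByExpr, TMM, 12 libraries in 4 groups, Benjamini-Hochberg over 19890 genes, threshold 0.05, common biological coefficient of variation 0.2385). It was checked on data simulated from its own estimates, with far fewer changed genes than were called in the Pkd1 comparison. That check does not cover a comparison with as many changes as this one. CPM values carry the TMM factors, except those of Xist and the tRNA sums. Shares were tested by exact 2-sided permutation. Deposited TPM gave levels between genes, and the deposited log2 CPM, DESeq2 1.42.0 and limma 3.58.1 served as alternatives. Nuclear copies were matched with blastn 2.17.0. Every mRNA, rRNA and tested tRNA is named, with up to 4 genes per pathway list by smallest p in the Pkd1 comparison. Members and lists were chosen with earlier results of these data known. Depth was 23070736 to 31837973 counts per library, and precision is lowest for the tRNAs, which have the fewest counts.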

Additional observations from a re-analysis of the deposited data

Results flagged for a closer look

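These transcripts differed between the 2 lines in their knockout effect, by a test of the difference itself (Pkd1 effect minus Cep120 effect, edgeR interaction contrast, adjusted over all genes). Among complex I mRNAs the log2 difference was -2.04 for mt-Nd2 (edgeR adjusted p = 0.000699) and -1.88 for mt-Nd3 (edgeR adjusted p = 0.00308). It was -1.64 for mt-Nd4, -1.50 for mt-Nd6, -1.41 for mt-Nd4l, -1.18 for mt-Nd5 and -1.18 for mt-Nd1, with edgeR adjusted p-values between 0.000656 and 0.0048. For mt-Cytb it was -1.23 (edgeR adjusted p = 0.0121). For the complex IV mRNAs mt-Co2 and mt-Co3 it was -0.94 and -0.92, and for mt-Atp6 it was -0.96, with edgeR adjusted p-values between 0.0233 and 0.0365. For the rRNA mt-Rnr2 it was -1.17 (edgeR adjusted p = 0.0213), and for the tRNA mt-Tq it was -1.41 (edgeR adjusted p = 0.0412). The Pkd1 effect was the lower in all 13. Over 26 fits at the adjusted p threshold of 0.05, the call held in all 26 for the 7 complex I mRNAs and mt-Cytb, in 22 for mt-Rnr2, 21 for mt-Atp6, 19 for mt-Co2, 16 for mt-Co3 and 14 for mt-Tq. With the Xist term these last 5 lost it.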

How the results depend on the processing

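Counting each value under each alternative, values that answer a comparison stayed the same 463 times, moved 8 times and reversed 1 time (the Cep120 tRNA difference). Here a count of calls stayed the same within a set margin, and a median within the SD between libraries of 0.255. A share or ratio stayed the same if it kept its sign. The tally includes counts of mitochondrial genes called higher, which were 0 in every fit. It also includes fits that left out a library of the other line. Such entries had little room to change, so the tally is no measure of how firmly the results held. Among the 8 the Cep120 mRNA median changed sign. The mRNA median between the control groups also changed sign without Pkd1 control 2, but within that SD. Single genes kept direction and call 2304 times, lost the call 76 times, gained it 23 times and reversed 25 times. The Xist term moved most. With it, the Cep120 mRNA median was 0.11, the Pkd1 median -0.84, and the Pkd1 counts of calls lower were 4 for mitochondrial genes and 9 for the pathway lists; 8 mitochondrial genes were called lower in the difference between lines. At an adjusted p of 0.01 that difference held 7 calls. Leaving out each library gave 8 to 14 calls there, 16 to 17 Pkd1 calls (mt-Ts1 joined without Pkd1 control 1) and a Pkd1 median of -1.58 to -1.20. It gave a Cep120 median of -0.48 to -0.11 and a Cep120 tRNA difference of -0.17 to 1.08 CPM. Under the Xist term, Cep120 fold changes turned positive for mt-Rnr1 (0.14), mt-Rnr2 (0.0653), mt-Nd2 (0.17), mt-Co1 (0.11), mt-Ts1 (0.28), mt-Co2 (0.009), mt-Atp8 (0.0362), mt-Atp6 (0.12), mt-Nd3 (0.23), mt-Nd4 (0.0904), mt-Nd5 (0.21), mt-Cytb (0.15) and mt-Nd4l (0.0821). The Cep120 value of mt-Nd5 was also 0.0691 with library totals, 0.0042 with the class of detected genes as a term and 0.0415 with the deposited log2 CPM. Leaving out libraries gave -0.24 to 0.084 for mt-Nd5, -0.0862 to 0.36 for mt-Tq, -0.14 to 0.17 for mt-Nd6 and -0.17 to 0.53 for mt-Tp in Cep120 KO kidneys. The Pkd1 value of mt-Tl1 was 0.17 with the detected-gene class, 0.14 without both replicate 3 controls, and -0.87 to 0.11 leaving out libraries. The cause was not tested for any of these. Scaling moved the Pkd1 median between -1.51 (upper quartile, median of all genes -0.13) and -1.31 (deposited log2 CPM, median of all genes 0.06). With no filter on low counts, edgeR called 344 genes in the Cep120 comparison, none of them mitochondrial.

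Same-numbered libraries deviated together with correlations of 0.178, -0.054 and 0.148 in the Cep120 line and -0.096, -0.043 and -0.136 in the Pkd1 line, so the numbers were not taken as pairs. With the replicate block, edgeR called 16 mitochondrial and 60 pathway genes lower in Pkd1 KO kidneys, 0 in Cep120 KO kidneys and 11 in the difference, where mt-Co2 and mt-Co3 lost their call, and the sign-flip p of the Pkd1 shares was 0.25, the smallest that 3 pairs allow. The fit of the compared libraries alone was not possible for the difference, and 3 tRNAs could not be fitted above 5 CPM.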

Other observations

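The 7 nuclear pseudogenes that match mitochondrial mRNAs at 99% identity or more were called lower in Pkd1 KO kidneys by edgeR when counted on their own. Gm29216, which matches mt-Co1, had the smallest log2 fold change, at -0.78 (edgeR adjusted p = 0.00616). Gm28438, which matches mt-Nd3, had the largest, at -2.41 (edgeR adjusted p = 6.72e-05). Their mitochondrial counterparts stood at -0.81 for mt-Co1 and -2.09 for mt-Nd3. In Cep120 KO kidneys none of the 7 was called by edgeR, with log2 fold changes of -0.48 to 0.04. The part held by Gm28437 of its pair with mt-Co3 differed by line, at 10.7 ± 0.102% in Cep120 KO libraries and 8.90 ± 0.130% in their controls, but 9.20 ± 0.502% in Pkd1 KO libraries and 10.6 ± 0.353% in their controls (SD, n = 3 each). That difference between lines was not tested. Whether a read counted for a pseudogene came from nuclear or mitochondrial RNA cannot be told apart at these identities.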
